A study of Neurospora crassa with 24 samples.

Results

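A set of 52 genes of Neurospora crassa was examined whose RNA, between 240 and 360 min after plating, was higher at the later time on maple sap medium (MSM) and lower at the later time on Bird medium (BM). The members were selected on these measured values. A gene had to have all 4 stage levels with lower bounds above 0 on both media, a log2 change between 15 and 120 min of less than 1 in size on both, and a change between 240 and 360 min of at least 0.7 on MSM and of -0.4 or less on BM. Of 9730 genes listed, 8676 were kept on both media, 5924 of these met the condition on the first step, and 52 met all conditions, which is 0.599% of the genes kept on both media. Every member had the full set of levels and bounds on both media, because the selection required it.

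The levels come from RNA sequencing of conidia, the asexual spores, of the mat A strain FGSC2489, plated on cellophane over solid medium and kept in constant light. The MSM groups grew on maple sap with agar, a natural medium low in nitrogen, and the BM groups on the synthetic, nitrogen-rich Bird medium, each at 15, 120, 240 and 360 min with 3 libraries per group, 24 in all. The media also differ in their main sugar, sucrose on MSM and glucose on BM, and in minerals and buffer, so they do not contrast nitrogen alone. All groups share the strain, a single wild type of 1 mating type, and the spores had been raised on BM. The sampling times were set by how spores looked on BM, from fresh conidia to the first hyphal branch, so a difference between the media and a difference in developmental timing cannot be told apart.

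A dormant conidium of N. crassa holds stored RNA, swells, sends out a germ tube and becomes a branching hypha. Good nitrogen supply favours vegetative growth, while nitrogen shortage favours the sexual pathway, in which peptide pheromones attract the opposite mating type. Reactive oxygen species and calcium are among the signals that accompany these changes of state. The 5 of 52 members with a symbol in the gene reference encode a pheromone precursor, a catalase, a calcium pump and proteins of genome defence. The other 47 have no symbol, and those annotated elsewhere include a protease and a multicopper oxidase, so no theme is assigned to the set.

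Each deposited level is expressed against the lowest of that gene's 4 levels on the medium in question, which is set to 1, and was estimated by the authors from the 3 libraries of a group together. Levels can therefore not be compared between genes or between media, and only changes between stages are. All log2 changes below are relative to the median gene of each stage and medium. This matters on BM, where the median log2 level itself moved by -0.52, 0.59 and -0.52 over the 3 steps, against 0.28, -0.06 and -0.02 on MSM. Standard errors (SE) were taken from the deposited 95% bounds, since no value per library was used. Read depth is unknown from these values, and variation between cultures may exceed what the intervals show, so that passing a test here speaks of the pooled libraries. The spore genes con-6, con-8, con-10, con-13 and eas were lower at 360 than at 15 min in 4 of 5 cases on MSM, with changes of -2.48 to 0.12, and in 5 of 5 on BM, with changes of -5.08 to -2.16. The exception on MSM was con-10.

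On MSM the last step of the members ran between 0.70 and 3.09 on the log2 scale, with a median of 1.03, a 2.04-fold rise. On BM it ran between -2.95 and -0.40, with a median of -0.74, a 1.67-fold fall. These are the values that chose the genes and they are given as a description. The medians over all genes kept on both media were 0.16 on MSM and 0.22 on BM. As deposited, without reference to the median gene, the last step was above 0 on MSM in 52 of 52 members (0.69 to 3.07) and below 0 on BM in 52 of 52 (-3.47 to -0.92). The selection fixed these signs in advance, because the median gene moved by -0.02 on MSM and -0.52 on BM in this step. The change reached 1 or more in size on MSM in 27 members, on BM in 15, and on both in 9.

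**Figure D1:**
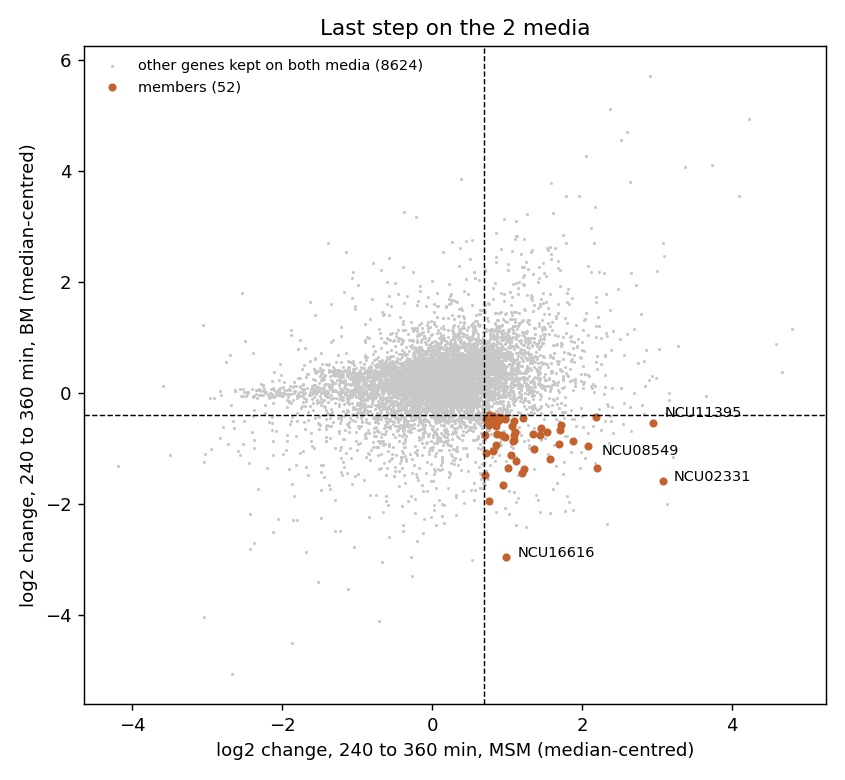
Median-centred log2 change between 240 and 360 min on MSM (horizontal axis) and on BM (vertical axis) for the genes kept on both media, with the 52 members in orange and the 2 thresholds (0.7 and -0.4) as dashed lines. Grey points in the same corner failed the condition on the first step.

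Among the 5924 genes that met the first-step condition, 919 rose by at least 0.7 on MSM and 343 (5.79%) fell to -0.4 or less on BM. The 52 members were 5.66% of the MSM risers, close to the share of all 5924 genes that fell on BM, and 289 (31.4%) of the MSM risers reached 0.7 on both media. The mirror pattern, at -0.7 or less on MSM with at least 0.4 on BM, held 73 genes. With the thresholds exchanged, at -0.4 or less on MSM with at least 0.7 on BM, it held 35. Without the first-step condition 169 genes would have been members. The spore gene con-10 is an example: its centred level on MSM was -1.30 at 240 min and 0.12 at 360 min relative to 15 min, and on BM -1.54 at 240 min and -3.47 at 360 min, but its first step on BM of -1.20 kept it out.

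Precision differed widely among the members. For a single log2 level the median SE over the members was 0.115 on MSM and 0.154 on BM, against 0.0180 on MSM and 0.0199 on BM over all genes kept on both media. The largest SE of a gene was 0.25 or more in 22 of 52 members (42.3%) and in 911 of 8676 genes (10.5%). Members were 2.41% of these less precise genes and 0.386% of the 7765 more precise ones. The part of this imprecision in the choice of members was not tested. The last-step interval lay wholly above 0 in 47 members on MSM and wholly below 0 in 37 on BM, and in 14 members both intervals lay wholly past the thresholds. The single test of the last step called 31 members higher on MSM and 14 lower on BM, beside 45.7% of all genes called higher on MSM and 11.2% called lower on BM, from which nothing can be read because the same values chose the members.

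**Figure D2:**
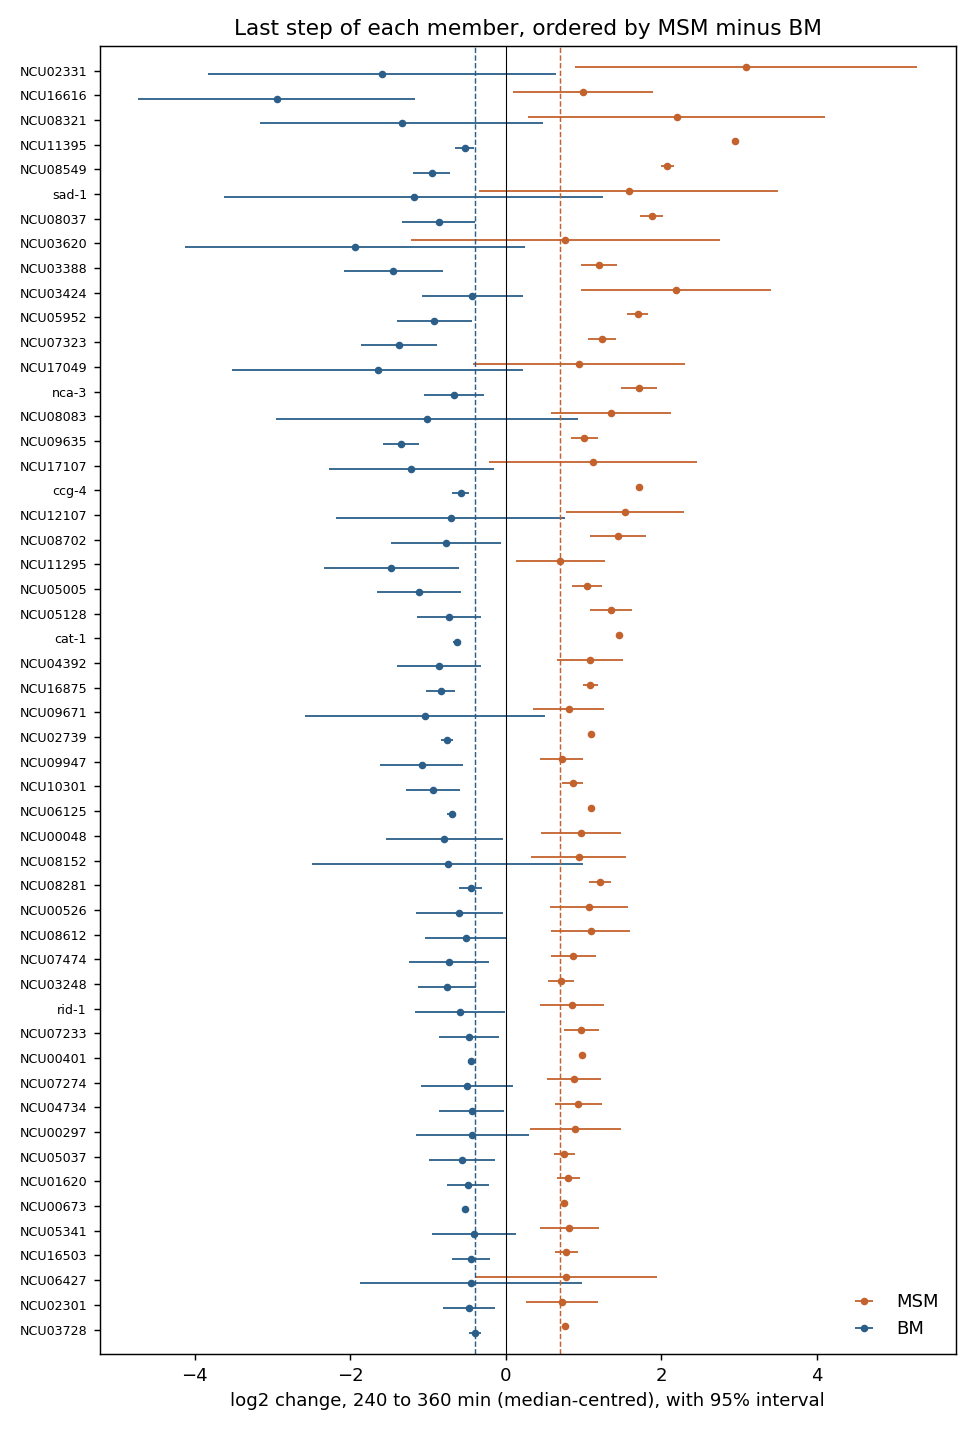
Last step of each member on MSM (orange) and BM (blue), median-centred, with 95% intervals, ordered by the difference between the media. Dashed lines mark the thresholds. Several genes at the top, such as NCU02331, have the widest intervals, while ccg-4, cat-1 and NCU00673 have narrow ones.

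Of the members, 5 carry a symbol in the gene reference (9.62%, against 12.7% of the genes kept on both media) and 47 have an identifier only in that reference. The first of the 5 is ccg-4 (NCU02500; chromosome I, 2531832 to 2533997, assembly NC12), a clock-controlled gene that encodes the precursor of the pheromone of mat A strains, the mating type used here. On MSM its level was 1.00, 1.35, 2.55 and 8.28 at 15, 120, 240 and 360 min, and on BM 9.04, 6.53, 2.14 and 1.00. The 95% intervals of neighbouring stages did not overlap on either medium. As deposited, its RNA was thus higher at each later stage on MSM and lower at each later stage on BM, although relative to the median gene the first step on BM was 0.05. The centred last step was 1.72 ± 0.0164 (SE) on MSM and -0.58 ± 0.0556 on BM.

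The catalase gene cat-1 (NCU08791; chromosome III, 5111604 to 5114534) encodes an enzyme that breaks down hydrogen peroxide and is abundant in conidia. It had levels of 1.00, 1.57, 1.73 and 4.67 over the 4 times on MSM, and of 1.89, 1.18, 2.21 and 1.00 on BM. The level on BM went down, up and down again, a course that the median gene shared in direction. Its last step was 1.45 ± 0.0198 on MSM, a 2.74-fold rise, and -0.62 ± 0.0275 on BM, a 1.54-fold fall.

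The calcium pump gene nca-3 (NCU05154; chromosome VI, 3552251 to 3556833) encodes a P-type ATPase. Its levels were 1.00, 2.31, 2.51 and 8.12 on MSM, and 1.20, 1.60, 2.27 and 1.00 on BM, where the intervals at 15 min (0.970 to 1.48) and 360 min (0.785 to 1.25) overlapped. Both media thus showed more nca-3 RNA at 240 than at 15 min, and the opposite directions came in the last step. The last step was 1.71 ± 0.120 on MSM and -0.67 ± 0.199 on BM.

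The remaining pair with symbols act in genome defence and had wide intervals. The product of rid-1 (NCU02034; chromosome I, 1611869 to 1615028) resembles DNA methyltransferases and is needed for repeat-induced point mutation, which mutates duplicated sequences in the sexual phase. Its levels were 1.79, 1.27, 1.00 and 1.79 on MSM, and 2.59, 2.76, 2.16 and 1.00 on BM. On MSM it thus stood at 360 min where it had been at 15 min, while on BM the lowest level came at 360 min. The last step was 0.85 ± 0.211 on MSM and -0.59 ± 0.297 on BM.

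The gene sad-1 (NCU02178; chromosome I, 969499 to 974473) encodes the RNA-dependent RNA polymerase of meiotic silencing. Its levels were 2.29, 3.35, 1.00 and 2.96 on MSM, and 5.68, 4.95, 3.26 and 1.00 on BM. The interval of the last level on BM ran between 0.142 and 2.97, and the SE of the last step was 0.980 on MSM (value 1.58) and 1.24 on BM (value -1.19). Both 95% intervals of the last step include 0, so the membership of sad-1 rests on the point values.

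**Figure D3:**
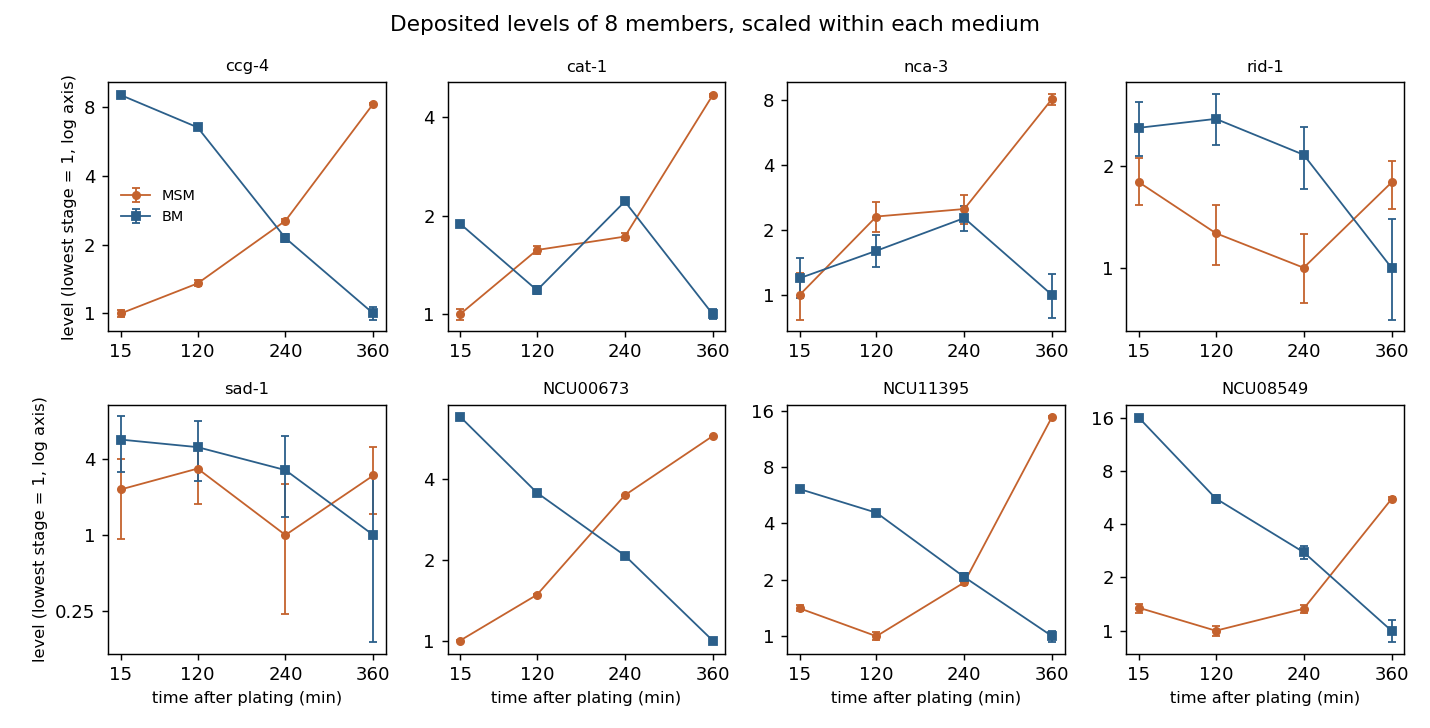
Deposited levels of 8 members over time on MSM (orange circles) and BM (blue squares), each scaled to that gene's lowest level on the medium, with 95% bounds on a logarithmic axis. Heights of the 2 lines cannot be compared, only their shapes: ccg-4, NCU00673, NCU11395 and NCU08549 fall at each later stage on BM and end at their highest level on MSM, except that NCU08549 and NCU11395 first dip at 120 min, while the bounds of sad-1 overlap between most stages.

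Of the members without a symbol, NCU11395 (chromosome VII, 463472 to 465368) had the largest rise on MSM among those with narrow bounds. Its levels were 1.41, 1.00, 1.94 and 14.8 on MSM, and 6.10, 4.56, 2.07 and 1.00 on BM. Most of its course on MSM lay in the last step (2.95 ± 0.0241, a 7.75-fold rise), and the last step on BM was -0.53 ± 0.0636. NCU08549 (chromosome III, 4961444 to 4962886) had levels of 1.35, 1.00, 1.33 and 5.55 on MSM, and of 16.0, 5.59, 2.78 and 1.00 on BM, the widest range of any member on BM. Its last step was 2.08 ± 0.0430 on MSM and -0.96 ± 0.120 on BM. NCU08037 (chromosome IV) had a similar course, with levels of 1.34, 1.00, 1.31 and 4.74 on MSM, and of 8.22, 3.88, 2.61 and 1.00 on BM.

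The part of the study's supplementary gene table used here covers 6 members and annotates 3 of them, and the other 46 members were not looked up there. NCU00673 (chromosome I, 7606805 to 7609640), annotated as a subtilisin-related protease, had the narrowest bounds of all members. Its levels were 1.00, 1.48, 3.47 and 5.75 on MSM, and 6.79, 3.54, 2.07 and 1.00 on BM. The largest step on MSM was the middle one (1.29), and the last step was 0.75 ± 0.00295 on MSM and -0.53 ± 0.0124 on BM. NCU00401 (chromosome III), marked there as a late light-response gene, had levels of 1.31, 1.04, 1.00 and 1.95 on MSM, and of 1.85, 1.81, 1.95 and 1.00 on BM. As deposited it stayed between 1.81 and 1.95 up to 240 min on BM and was lower at 360 min, with last steps of 0.98 ± 0.0176 on MSM and -0.44 ± 0.0237 on BM. NCU00526 (chromosome I), annotated as a multicopper oxidase, a class of copper enzymes that includes laccases, had levels of 1.71, 1.15, 1.00 and 2.08 on MSM, and of 1.00, 1.01, 2.18 and 1.00 on BM, with last steps of 1.07 ± 0.256 on MSM and -0.60 ± 0.285 on BM. It was chosen for mention after its values were seen.

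Several of the members with the largest difference between the last steps of the 2 media were among the least precise. NCU02331 led with a last step of 3.09 ± 1.12 on MSM and -1.59 ± 1.14 on BM. Its levels were 4.23, 8.97, 1.00 and 8.39 on MSM, and 2.13, 2.17, 4.32 and 1.00 on BM, and the interval of the level of 1.00 at 240 min on MSM ran between 0.174 and 3.21. NCU16616 had 0.99 ± 0.460 on MSM and -2.95 ± 0.906 on BM, the lowest value of any member there, and NCU08321 had 2.20 ± 0.975 on MSM and -1.34 ± 0.928 on BM. The last step of NCU03620 was 0.77 ± 1.01 on MSM and -1.94 ± 1.12 on BM, so its interval includes 0 on both media. NCU03424 had 2.19 ± 0.623 on MSM and -0.43 ± 0.331 on BM. Among the 12 members with the largest differences, both intervals lay past the thresholds in NCU11395, NCU08549, NCU03388, NCU05952 and NCU07323.

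Values close to the thresholds were as follows. Just inside on MSM lay NCU11295 (0.70 ± 0.293), NCU03248 (0.71 ± 0.0851) and NCU09947 (0.72 ± 0.142), and just outside lay NCU09196 (0.70 ± 0.0294, below 0.7 before rounding), NCU17247 (0.68 ± 0.348) and NCU04464 (0.68 ± 0.443). Just inside on BM lay NCU03728 (-0.40 ± 0.0395), NCU05341 (-0.41 ± 0.275) and NCU03424, and just outside lay NCU05951 (-0.39 ± 0.0414), NCU16418 (-0.39 ± 0.365) and NCU02164 (-0.38 ± 0.0330). In each of these genes the distance to the threshold was within 1 SE, and genes on either side cannot be separated at this precision.

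The courses before the last step differed among the members. On MSM the centred level was highest at 360 min in 39 of 52 members, and on BM it was lowest at 360 min in 42, which the selection favours. The lowest stage on MSM was 15 min in 16 members, 120 min in 14 and 240 min in 22. The highest stage on BM was 15 min in 20 members, 120 min in 15 and 240 min in 17. The selection also favours a low level at 240 min on MSM and a high one on BM. Members with 240 min as the lowest stage on MSM were 42.3%, against 18.5% of the genes kept on both media. Those with 240 min as the highest stage on BM were 32.7%, against 5.18%. A centred rise over every step on MSM was found in 13 members and a centred fall over every step on BM in 16. In 9 members 240 min was both the lowest stage on MSM and the highest on BM. This last count was 3 among the 30 members whose largest SE was under 0.25, of which 10 rose over every step on MSM and 10 fell over every step on BM.

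**Figure D4:**
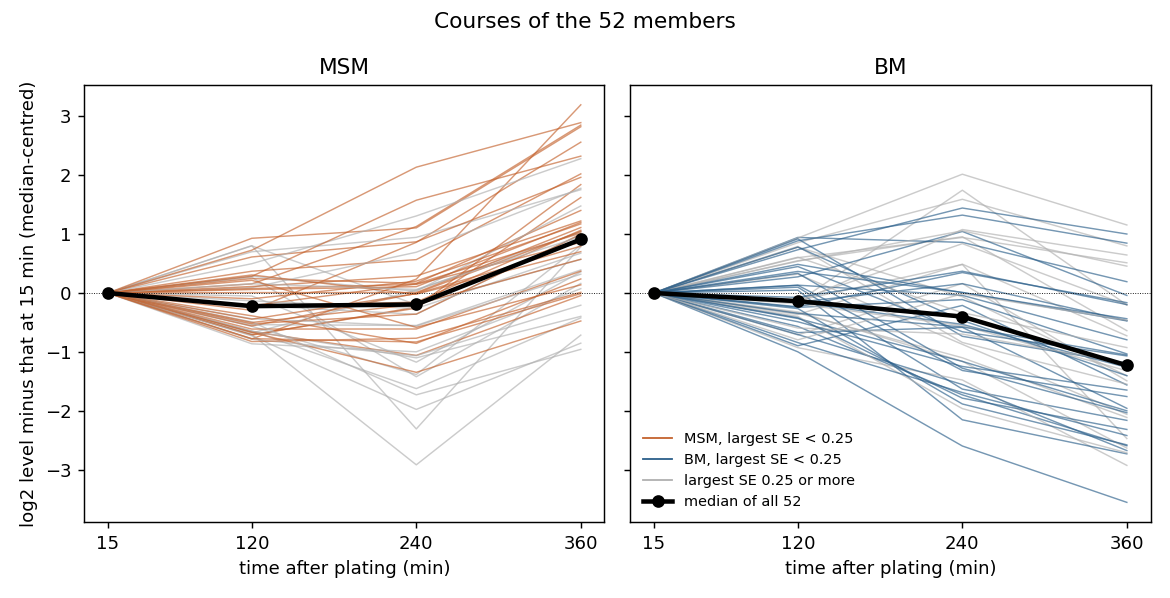
Centred log2 level of the 52 members relative to 15 min, on MSM (left) and BM (right), with members of largest SE under 0.25 in colour, the others in grey and the median of all 52 in black. The lines spread over the first 3 times on both media and move together only in the last step, which the selection used.

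The middle step, between 120 and 240 min, had no common direction on MSM. It shares stages with both conditions of the selection, so it is a description. On MSM 9 members were called higher (36.6% of all genes) and 1 lower (31.1% of all genes) by a two-sided z test with a Bonferroni adjusted p below 0.01, and the median was 0.00, against 0.02 over the genes kept on both media. On BM 2 members were called higher (26.9% of all genes) and 14 lower (44.7% of all genes), with a median of -0.36, against -0.16 over the genes kept on both media. Without reference to the median gene the calls on BM were 8 higher and 10 lower, beside 5047 and 1677 of 8773 genes. As shares of the 52 members the centred counts are 17.3% and 1.92% on MSM, and 3.85% and 26.9% on BM, each below the share of all genes. The median SE of this step was 0.169 on MSM and 0.203 on BM in the members. Over the genes kept on both media it was 0.0259 and 0.0300, so lower shares called do not mean smaller changes. On BM the step was -1 or less in 14 members (26.9%), against 14.9% of the genes kept on both media. The part of precision in the shares called was not tested. In this step 6 members were called higher on MSM and also lower on BM (11.5%, against 13.8% of the genes kept on both media), namely ccg-4, NCU00673, NCU02739, NCU03728, NCU08549 and NCU11395.

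The late level, the mean log2 of 240 and 360 min, was compared with the early level, the mean log2 of 15 and 120 min, since the selection set neither mean. The sampling error of this change is unrelated to that of the first and last steps only where the stages have equal errors, which was not so here. In ccg-4 the SE at 240 and 360 min was 0.0155 and 0.00543 on MSM, and 0.0314 and 0.0459 on BM. In sad-1 it was 0.872 and 0.447 on MSM, and 0.543 and 1.12 on BM. Error in a stage level can thus enter both the selection and the late level. Across the 8676 genes the late-against-early change also moved with the last step (Pearson's r of 0.64 on MSM, 0.52 on BM and 0.56 for MSM minus BM, a description in which the points share stages and libraries). Counts over the members are therefore not independent of how they were chosen. On MSM 25 members were higher at the late times (48.1%, beside 41.0% of all genes) and 2 were lower (3.85%, beside 41.5% of all genes), with a median change of 0.45. Under Benjamini-Hochberg adjustment at 0.05 these counts on MSM were 28 and 8, beside 3982 and 4109 of 8855 genes. The 2 lower members were NCU03388 (-0.70 ± 0.0726) and NCU07474 (-0.58 ± 0.0925). On BM 0 members were higher, beside 40.3% of all genes, and 23 were lower (44.2%, beside 40.4% of all genes), with a median of -0.83. The 0 on BM became 6 members at an unadjusted p below 0.05, and 6 under Benjamini-Hochberg adjustment at 0.05, the latter beside 3983 of 8773 genes. The medians over the genes kept on both media were -0.02 on MSM and 0.00 on BM.

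Of the genes with symbols, ccg-4 moved most on both media, 1.91 ± 0.0192 on MSM (3.75-fold higher late than early) and -2.46 ± 0.0293 on BM (5.51-fold lower). For cat-1 the change was 1.11 ± 0.0194 on MSM and passed the test, and on BM it was -0.08 ± 0.0191 and did not. The late level of nca-3 was 2.82-fold higher on MSM (1.50 ± 0.124) and passed, while on BM its change was 0.05 ± 0.142 and did not. For rid-1 the change was -0.24 ± 0.143 on MSM, which did not pass, and -0.93 ± 0.176 on BM, a fall that passed. For sad-1 neither passed, at -0.76 ± 0.593 on MSM and -1.62 ± 0.678 on BM.

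The largest late-against-early rises on MSM were those of NCU05037 (2.15 ± 0.0939), NCU11395 (2.10 ± 0.0257), ccg-4, NCU05952 (1.85 ± 0.0761) and NCU00673 (1.80 ± 0.00330). In NCU05037 the middle step on MSM (1.41) was larger than the last (0.75), as in NCU00673, and the change on BM was 0.12 ± 0.155, which did not pass. The 5 lowest values on MSM, between -1.46 and -0.76, belonged to NCU08321, NCU02331, NCU06427, NCU17107 and sad-1, none of which passed. On BM the largest falls were those of NCU08549 (-2.57 ± 0.0636), ccg-4, NCU08152, NCU06125 (-2.10 ± 0.0160) and NCU11395 (-1.94 ± 0.0344), and NCU08152 (-2.13 ± 0.478) did not pass. The highest values on BM, none of which passed, were those of NCU04392, NCU00297, NCU04734, NCU03620 and NCU00048, between 0.77 and 1.12.

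The change on MSM minus that on BM was above 0 in 40 of 52 members and was called above 0 in 27 (51.9%, beside 39.2% of all genes) and below 0 in 0 (beside 36.5% of all genes). The same z test gave 2 members below 0 at an unadjusted p below 0.05, and 2 under Benjamini-Hochberg adjustment at 0.05, the latter beside 3696 of 8676 genes. The median difference was 1.12, against 0.03 over the genes kept on both media. Among the 30 members of largest SE under 0.25, 25 were called above 0, beside 42.9% of the 7765 genes of that precision. Among the 22 others 2 were, beside 7.9% of the 911 less precise genes. The difference was 4.37 ± 0.0350 for ccg-4, 4.04 ± 0.0429 for NCU11395, 3.73 ± 0.0749 for NCU08549 and 3.64 ± 0.00758 for NCU00673. It was 1.18 ± 0.0272 for cat-1 and 1.44 ± 0.188 for nca-3, both called, and 0.69 ± 0.226 for rid-1, which did not pass. Opposite calls, higher late on MSM and lower late on BM, were made for 16 members of 52, against 870 of the 8676 genes kept on both media.

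**Figure D5:**
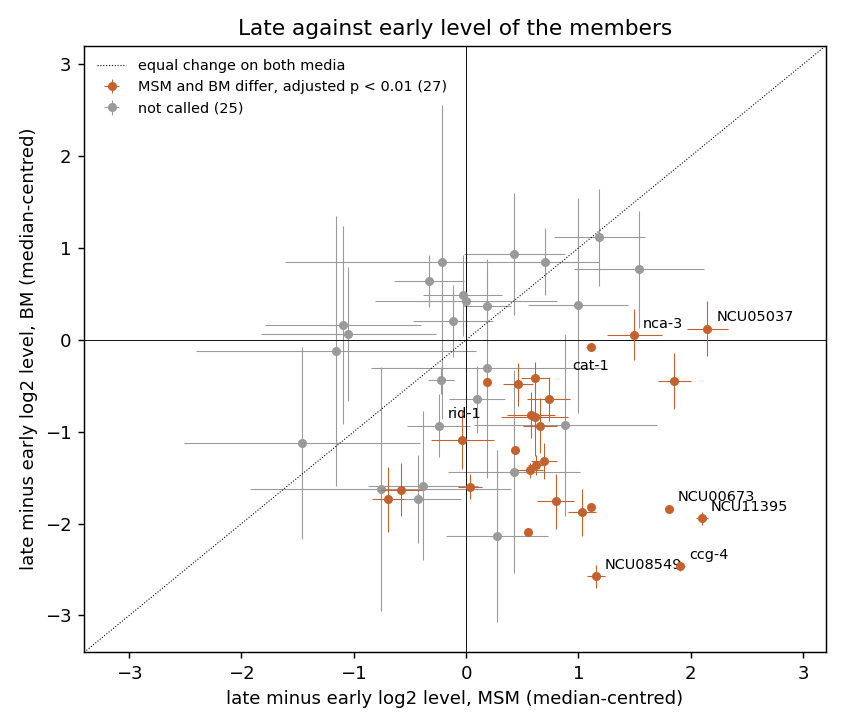
Late minus early log2 level of the 52 members on MSM (horizontal axis) and BM (vertical axis), median-centred, with 95% intervals. The 27 members in orange, whose changes differ between the media, all lie below the dotted line of equal change, while the 25 grey members lie on both sides of it with wider intervals.

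Set beside the 867 genes that met the first-step condition and rose by at least 0.7 on MSM without the fall on BM, the members had a median last step on MSM of 1.03 against 0.97. Their late level on MSM stood less far above the early one, by 0.45 against 0.88, and their late level on BM lay below the early one, by -0.83 against 0.43. In the 289 genes with a last step of at least 0.7 on both media the late level stood above the early one by medians of 1.07 on MSM and 1.09 on BM. These groups were cut from the same values, so no test of the difference was made.

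Gene lists drawn up for the main functions of germination were matched by symbol, which most members lack. Of 27 lists, 24 held 0 members. Members were only 0.599% of the genes kept on both media, so few would fall in lists of this size in any case. Of the 5924 genes that met the first-step condition, 15.5% were at or above 0.7 on MSM and 5.79% at or below -0.4 on BM. The lists below were not held to that condition. In the conidiation list ccg-4 was the 1 member of 37 genes, of which 6 were at or above 0.7 on MSM and 10 at or below -0.4 on BM in the last step. Among 22 genes for ion pumps and transporters, mostly subunits of the vacuolar proton ATPase, with the other ATPases pma-1, ena-1, nca-1 and nca-2 and the transporters cax, hak-1 and trk, nca-3 was the 1 member, with 12 of 22 at or above 0.7 on MSM and 1, nca-3 itself, at or below -0.4 on BM. In the list of 16 oxidative stress genes, which holds cat-1, the late level was called higher than the early one in 8 and lower in 7 on MSM, and higher in 5 and lower in 10 on BM, where the shares over all genes were 41.0% and 41.5% on MSM and 40.3% and 40.4% on BM. Other lists had many genes past the threshold on MSM and no member: 22 of 29 genes of respiratory complex I and 20 of 30 proteasome genes were at or above 0.7 on MSM, but 0 of the complex I genes and 1 of the proteasome genes were at or below -0.4 on BM.

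Relatives of the members with symbols were looked up after the values had been seen. The precursor of the other mating type's pheromone, mfa-1, had a last step of 2.22 ± 0.0404 on MSM and -0.28 ± 0.0730 on BM, short of the threshold on BM. The pheromone receptor genes pre-1 (0.27 on MSM, -0.02 on BM) and pre-2 (-0.12 on MSM, -0.71 on BM) did not reach the threshold on MSM. Of the 4 catalase genes, cat-2 (0.45 on MSM, -0.99 on BM) and cat-3 (-1.21 on MSM, -0.49 on BM) were also past the threshold on BM, and cat-1 was the 1 of 4 that reached 0.7 on MSM. The calcium pump genes nca-1 and nca-2 had last steps of -0.51 and 0.59 on MSM and of 0.28 and 0.57 on BM, so nca-3 was the 1 of 6 calcium transport genes at or below -0.4 on BM. Of 16 genome defence genes, rid-1 and sad-1 were the 2 at or below -0.4 on BM.

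The members were spread over the genome. By chromosome, I to VII held 10, 6, 8, 9, 6, 8 and 5 members, which is 19.2%, 11.5%, 15.4%, 17.3%, 11.5%, 15.4% and 9.62%, against 25.1%, 10.5%, 12.5%, 15.1%, 16.4%, 9.88% and 10.5% of the genes kept on both media. No 2 members were neighbours: the closest pair, nca-3 and NCU05128 on chromosome VI, had 26 genes between them. The median gene length was 1841 bases in the members, with a range of 333 to 4975, and 2274 bases over the genes kept on both media.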

How the data were processed

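Per the submitters' processing notes and the study's methods, the authors trimmed the reads of 24 libraries, aligned them with TopHat2 2.0.12 to the OR74A assembly and tallied uniquely mapped reads per exon with HTSeq 0.6.1p1. The authors pooled the 3 replicates of a group and deposited, for each gene and medium, the ratio of each stage's level to the lowest stage, estimated with LOX, and the distances to its 95% bounds. Numbered columns were taken as the 4 times in order. Values of single libraries were not analysed here.

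Log2 levels were centred on the stage median over the kept genes (8855 on MSM, 8773 on BM). The SE of a log2 level was the width of its interval over that of a standard normal interval of the same coverage. Late against early levels and the middle step were tested over all kept genes by two-sided z tests, with stages taken as independent and Bonferroni adjusted p below 0.01 as threshold. A prior check on simulated data drew independent errors from these same SEs. It could therefore not show whether the stages are independent or whether the bounds cover variation between cultures.

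The members and the gene lists were chosen with earlier results of these data known. Genes named are members with a symbol, the 12 with the largest difference between the last steps, the 5 highest and 5 lowest late-against-early changes on each medium, the 3 nearest each threshold on either side, and members of a list or of the study's text. NCU00526, NCU02739, NCU05128, NCU07474 and relatives of members were named after their values were seen. Symbols, positions and lengths come from the RefSeq table of assembly NC12, which holds 9729 of the 9730 identifiers. Sequences were not analysed here. Alternatives were Benjamini-Hochberg adjustment, no centring, a larger SE, a 2-fold minimum, precise genes only and other thresholds of membership. Computations used Python 3.11.15 (numpy 2.4.6, pandas 2.3.3) and SciPy 1.17.1, and figures matplotlib 3.10.9.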

Additional observations from a re-analysis of the deposited data

Results flagged for a closer look

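The change between early and late levels differed between the media, by a z test of the difference, in 27 of 52 members, all with the higher value on MSM, beside 39.2% of all genes called in that direction. The members had been selected for a last step that differed between the media, and across all genes this difference moved with that of the last step (r of 0.56 over 8676 genes, with shared stages), so the count is a description and not independent of the selection. Of the members with a symbol, the difference was 4.37 ± 0.0350 (SE, log2) for ccg-4, 1.18 ± 0.0272 for cat-1 and 1.44 ± 0.188 for nca-3. Because stage and medium values were pooled over replicates, no group could be examined for a library that stands apart.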

How the results depend on the processing

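No paired analysis was possible because the deposited columns pool the 3 replicates of a group, and for the same reason no replicate could be left out. The number of members was 52. It was 84 and 27 with a threshold on MSM of 0.5 and 1, 96 and 29 with a threshold on BM of -0.2 and -0.7, and 17 and 169 with a first-step bound of 0.5 and with none. Without centring it was 202, of which 35 were among the 52, and with centring on the mean 65, of which 36 were. It was 14 where both 95% intervals had to clear the thresholds and 30 with only genes whose largest SE was under 0.25. With SE multiplied by 3, members called late against early were 12 on MSM (27 as reported), 11 on BM (23) and 15 in the difference (27). In the middle step they were 3 on MSM (10) and 10 on BM (16). At that setting 64.2%, 59.5% and 53.9% of all genes were called late against early (82.5%, 80.7% and 75.7% as reported). In the middle step 42.3% on MSM and 45.8% on BM were called (67.7% and 71.6% as reported). With a change of at least 2-fold, 12 members were called on MSM late against early, beside 31.8% of all genes. In the middle step on MSM 4 were called, beside 11.2%. Under Benjamini-Hochberg adjustment 40 members were called on BM late against early, beside 90.7% of all genes. In the middle step 24 were called on MSM and 32 on BM, beside 82.4% and 85.8%. The other alternatives left the total counts of members called within 1.5 times, but under Benjamini-Hochberg adjustment the lower calls late against early were 8 on MSM (2 as reported) and 2 in the difference (0). Beside these, 4109 of 8855 genes were called lower on MSM and 3696 of 8676 in the difference. Among the 5 genes with symbols, 63 of 70 late-against-early results kept their side of the threshold. Only the alternative without centring recomputed the changes themselves, and there 0 changed direction. The other alternatives could alter a call but not a direction. With SE multiplied by 3 the rise of nca-3 on MSM, its difference between the media and the fall of rid-1 on BM were lost, and the fall of rid-1 was also lost with a change of at least 2-fold. Benjamini-Hochberg adjustment added the changes of sad-1 and cat-1 on BM and the difference of rid-1. Precision limits most statements on sad-1, NCU02331 and other members with a largest SE of 0.25 or more.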
